A study of Homo sapiens with 12 samples.

Results

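The BCL2 family decides whether a cell releases the contents of its mitochondria and dies. Its 10 genes chosen here were the pro-survival BCL2, BCL2L1 and MCL1, the effectors BAX and BAK1, and the BH3-only genes BBC3, PMAIP1, BID, BCL2L11 and BIK. Members were found by their gene symbol in the platform annotation. A probe set is a group of short oligonucleotides read as 1 signal. Of the 10 members 9 had a probe set with their symbol alone, out of 19775 such genes on the array. The only probe set of BBC3 carried 3 symbols and is not reported. The 9 genes had 30 probe sets, of which 25 were bright enough to be tested among 29553 of 54675 in all.

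The arrays measured total RNA of HEK cells, a human embryonic kidney line, in stable lines where tetracycline induces a TRPM7 transgene. TRPM7 is an ion channel joined to a kinase. The WT line carried the wild-type channel, and the mutant line carried a channel with the kinase domain deleted, which the study's design treats as nonfunctional. The 4 groups of 3 arrays were the WT line untreated, the WT line with 1 ug of tetracycline (volume not stated) for 72 hours, and the mutant line under the same conditions. All 4 groups grew in blasticidin, which the controls therefore shared, and the labels do not say whether a line is 1 clone or whether replicate arrays stem from different cultures. The p-values measure the spread between these samples only, which may be technical, and the number of arrays limits the precision.

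In the intrinsic death pathway, BAX and BAK1 form pores in the outer mitochondrial membrane and cytochrome c escapes to switch on caspases. BCL2, the BCL2L1 product BCL-XL and MCL1 hold the effectors and the BH3-only proteins in check. BH3-only proteins report damage: they occupy the pro-survival proteins or act on the effectors directly. Many of these proteins are set by splicing, cleavage, phosphorylation and turnover, which RNA signal does not read.

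The values are MAS5 signals on the log2 scale, with signals under 1 set to 1, and levels of different probe sets are not comparable. Every array had the same trimmed mean signal of 500. No tested TRPM7 probe set rose with tetracycline: in the WT line the log2 changes were -0.85 (limma adjusted p = 0.0643), -2.00 (adjusted p = 0.0411) and 0.11 (adjusted p = 0.915), and whether these probes match the transgene was not tested. These arrays therefore do not show the transgene switched on, and groups and directions are given by the labels alone. Of 8 genes known in HEK cells 7 were above the filter, with IRS4 between 13.1 and 15.2, against 1 of 4 blood, 1 of 6 fibroblast and 2 of 4 endothelial markers. The summed signal of the 6 fibroblast markers, of which only COL1A1 passed the filter, was 635 to 937 in the untreated WT arrays and 1270 to 1470 with tetracycline. Its part in the results was not tested. The median SD per probe set was 0.299 and 0.326 in the WT groups and 0.174 and 0.19 in the mutant groups, while the fit uses 1 spread for all 4.

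The promoters of 4 members are shown because their probe sets carried the changes described below. BID and BCL2 changed with tetracycline in the WT line, and BAK1 differed between the lines. BAX differed between the lines on 1 of its 2 probe sets, and only with tetracycline. MCL1, which also had calls between the lines, had no listed promoter. Each is the 250 bases before the most upstream listed start, from RefSeq on GRCh38.p14, 5′ to 3′ on the strand of the gene. The motifs searched on both strands were CACGTG (an E-box), GGGCGG (a GC box), CCAAT (the box of that name), TATAAA (the TATA box), TGACGTCA (a cAMP response element) and TGATGNAA (a C/EBP-ATF composite element), and capitals mark their matches. BID lies on the minus strand at chr22:17774666-17774915 and has 5 listed starts. BCL2 lies on the minus strand at chr18:63319770-63320019, BAK1 on the minus strand at chr6:33580277-33580526 and BAX on the plus strand at chr19:48954625-48954874.
BID: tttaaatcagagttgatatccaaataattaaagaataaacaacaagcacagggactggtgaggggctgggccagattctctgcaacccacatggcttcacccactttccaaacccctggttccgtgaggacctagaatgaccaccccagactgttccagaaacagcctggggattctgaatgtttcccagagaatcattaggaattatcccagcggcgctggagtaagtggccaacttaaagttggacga
BCL2: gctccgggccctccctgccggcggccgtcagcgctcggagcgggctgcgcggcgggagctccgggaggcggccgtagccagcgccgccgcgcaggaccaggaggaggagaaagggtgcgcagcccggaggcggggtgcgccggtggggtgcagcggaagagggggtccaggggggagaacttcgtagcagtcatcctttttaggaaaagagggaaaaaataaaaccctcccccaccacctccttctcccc
BAK1: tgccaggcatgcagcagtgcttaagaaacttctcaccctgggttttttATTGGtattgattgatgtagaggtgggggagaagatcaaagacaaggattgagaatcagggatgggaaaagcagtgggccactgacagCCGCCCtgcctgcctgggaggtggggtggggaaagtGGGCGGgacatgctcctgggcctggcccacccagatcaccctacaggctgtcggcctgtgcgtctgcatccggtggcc
BAX: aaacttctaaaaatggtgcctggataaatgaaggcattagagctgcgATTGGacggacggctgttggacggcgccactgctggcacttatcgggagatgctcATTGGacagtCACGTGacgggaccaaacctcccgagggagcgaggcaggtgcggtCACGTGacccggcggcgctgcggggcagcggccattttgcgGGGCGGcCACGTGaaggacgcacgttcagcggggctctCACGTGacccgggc

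The BID and BCL2 windows held none of the 6 motifs. The BAK1 window held 2 GC boxes and 1 CCAAT box, and the BAX window held 4 E-boxes, 2 CCAAT boxes and 1 GC box. Promoters of 8 of the 10 members were in the table. Among them 2 held an E-box, 4 a GC box, 4 a CCAAT box and 1 (BCL2L1) the TATA box, and none held the cAMP response element or the composite element. Over 27305 promoters of the same length the shares were 6.46% for the E-box, 42.2% for the GC box, 33.0% for the CCAAT box, 11.2% for the TATA box, 1.75% for the cAMP response element and 3.19% for the composite element. A match is a run of letters in this window and not a measured site.

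The first comparison asked how the family's RNA differed with tetracycline in the line labelled WT. BID, the BH3-only gene whose protein is cut by caspase-8 and carries death receptor signals to mitochondria, fell on 2 of its 3 probe sets, 227143_s_at and 204493_at, and its brightest did not pass. BCL2, the founding pro-survival gene, rose on its 1 tested probe set of 4. Of 25 tested member probe sets 1 rose and 2 fell, which was 12% against 16.9% of all tested probe sets, 7.83% up and 9.11% down (limma, Benjamini-Hochberg adjusted p under 0.05 over all of them). The share was near that of the array as a whole, so the counts are a description and not a result about the members. The median log2 change was 0.11 over the members and 0.02 over all tested. In bulk RNA, fewer cells of a type and less RNA per cell cannot be told apart.

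On BID 227143_s_at the untreated WT arrays read 9.70, 10.05 and 9.89 and the tetracycline arrays 8.88, 8.73 and 8.56. In the mutant line the same probe set read 9.69, 10.07 and 9.74 untreated and 9.53, 9.46 and 9.39 with tetracycline. Both lines had every tetracycline array below every untreated one, with a wide gap in the WT line and a narrow one in the mutant line. The log2 change was -1.16 (SE 0.17, adjusted p = 0.000581) in the WT line, a level 2.23-fold lower. It was -0.37 (SE 0.17, adjusted p = 1) in the mutant line, the 1 member probe set there with an unadjusted p under 0.05 (0.0419).

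BID 204493_at read 9.55, 9.74 and 9.43 on the untreated WT arrays and 8.76, 8.13 and 7.55 with tetracycline. Its mutant arrays read 9.51, 9.35 and 9.28 untreated and 9.45, 9.13 and 9.26 with tetracycline. The WT groups did not overlap and the mutant groups did. The WT change was -1.43 (SE 0.24, adjusted p = 0.0017), a level 2.69-fold lower, and the mutant change was -0.10 (SE 0.24, adjusted p = 1). In a fit of the 6 WT arrays alone both BID probe sets still fell, with adjusted p = 0.0225 for 227143_s_at and 0.0349 for 204493_at. Without the third array of every group, 204493_at had an adjusted p of 0.0548.

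The brightest BID probe set, 211725_s_at, moved less. It read 10.96, 11.36 and 10.78 on the untreated WT arrays and 10.61, 10.77 and 10.46 with tetracycline, against 10.75, 10.79 and 10.79 and then 10.94, 10.77 and 10.70 in the mutant line. The WT groups were barely apart, with 10.78 as the lowest untreated and 10.77 as the highest treated value. Its WT change of -0.42 (SE 0.16, adjusted p = 0.0804) did not pass, so 2 of the 3 BID probe sets fell and the third had the same sign.

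**Figure D1:**
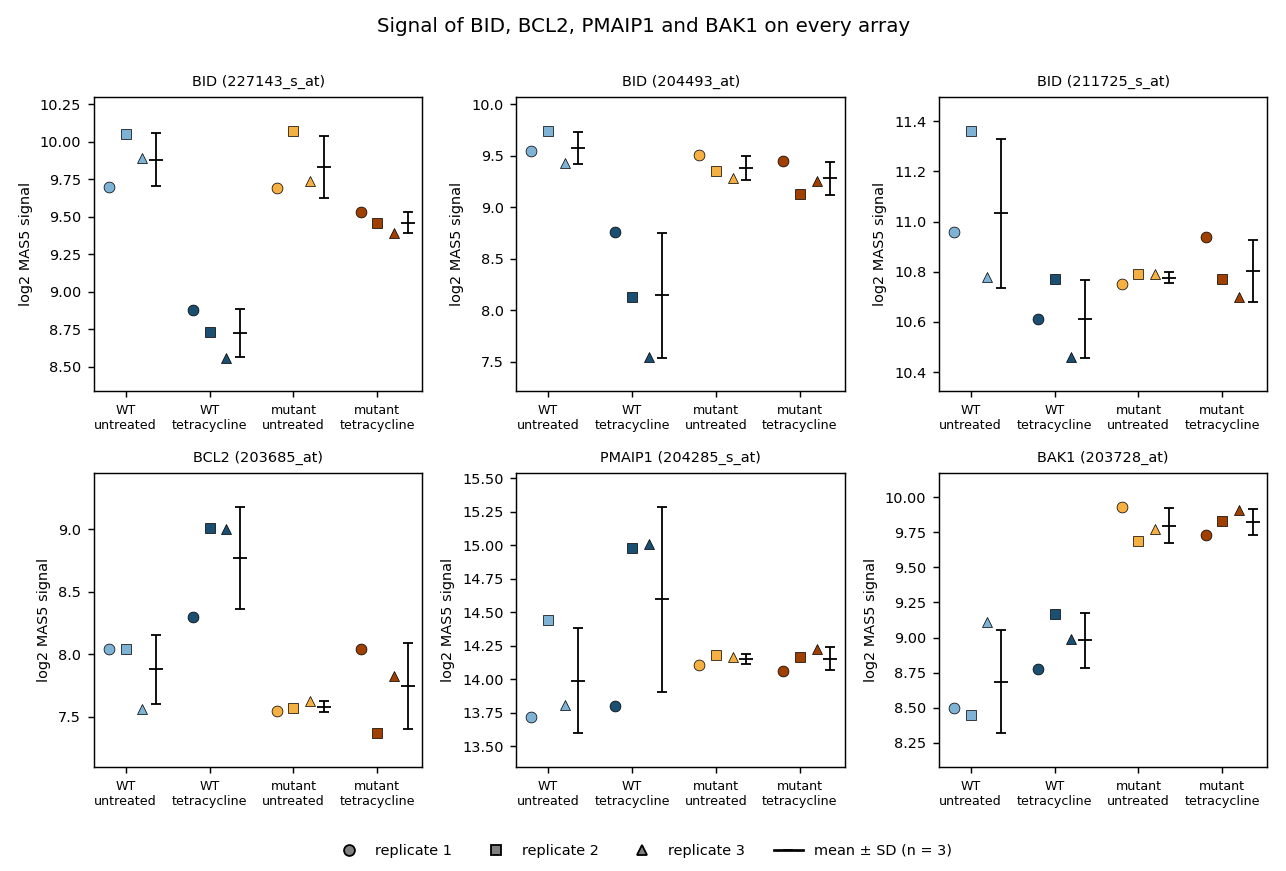
Log2 MAS5 signal on each of the 12 arrays for 6 probe sets of BID, BCL2, PMAIP1 and BAK1, by group, with the mean and SD (n = 3); each panel has its own axis, which does not start at 0. BID 227143_s_at sits between 8.56 and 8.88 in the WT line with tetracycline and at 9.39 or above elsewhere, and BAK1 is lower in both WT groups than in both mutant groups.

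The probe sets most like BID 227143_s_at over the 12 arrays, outside the lists used here, were those of ACP6, NTPCR, SRI, YME1L1 and ATP5MC3, with Pearson r from 0.952 to 0.973. For BID 204493_at they were KYAT3, EXOSC2, SLC38A9, PTDSS1 and GNAQ, with r from 0.977 to 0.984. These are the highest values among all tested probe sets with 1 symbol, over arrays that share 4 groups, and are given as a description without a test.

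Among the pro-survival genes, BCL2 203685_at read 8.04, 8.04 and 7.56 on the untreated WT arrays and 8.30, 9.01 and 9.00 with tetracycline. The mutant arrays read 7.55, 7.57 and 7.63 untreated and 8.04, 7.37 and 7.83 with tetracycline. All 3 tetracycline WT arrays were above all 3 untreated ones, and the mutant groups overlapped. The WT change was 0.89 (SE 0.25, adjusted p = 0.0282), 1.85-fold, and the mutant change was 0.16 (SE 0.25, adjusted p = 1). The BCL2 call was lost in the fit of the WT arrays alone (adjusted p = 0.109), without filter, without the third arrays (0.362), and without the untreated WT replicate 3 (0.105), the tetracycline WT replicate 2 (0.109) or replicate 3 (0.107). The other 3 BCL2 probe sets were too dim to be tested: 203684_s_at lay between 3.96 and 6.12 over the 12 arrays, 207004_at between 2.36 and 6.55 and 207005_s_at between 2.59 and 6.44. Unlike 203685_at, all 3 had a lower WT mean with tetracycline than without: 5.13 against 5.65 on 203684_s_at, 3.70 against 5.99 on 207004_at and 3.77 against 4.60 on 207005_s_at.

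BCL2L1, which gives the pro-survival BCL-XL and by splicing the shorter BCL-XS, had 3 tested probe sets and none passed in either line. Its brightest, 212312_at, read 8.18, 8.44 and 8.71 on the untreated WT arrays and 8.38, 8.19 and 8.18 with tetracycline, so the log2 change was -0.19 (SE 0.20, adjusted p = 0.552). Its mutant arrays read 8.24, 8.18 and 8.37 untreated and 8.55, 8.37 and 8.15 with tetracycline. This probe set overlapped in all 4 groups.

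Another BCL2L1 probe set, 206665_s_at, read below the filter of 6.39 on all 6 WT arrays and was tested because of its mutant level. It read 6.16, 6.16 and 6.35 on the untreated WT arrays and 4.78, 4.11 and 5.98 with tetracycline, and 6.90, 7.01 and 6.63 and then 7.41, 7.50 and 7.29 in the mutant line. Tetracycline arrays were all lower than untreated ones in the WT line and all higher in the mutant line. Neither the WT change, -1.27 (SE 0.44, adjusted p = 0.0632), nor the mutant change, 0.55 (SE 0.44, adjusted p = 1), passed, and without the tetracycline WT replicate 3 the WT change was -1.78 (adjusted p = 0.0131). The third, 215037_s_at, had changes of 0.11 (SE 0.39) and -0.04 (SE 0.39), and the dim 231228_at lay between 3.51 and 6.55.

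MCL1, the short-lived pro-survival protein that NOXA binds, had 5 tested probe sets and none passed in either line. The brightest, 200797_s_at, read 12.45, 12.10 and 12.52 on the untreated WT arrays and 12.60, 12.48 and 12.79 with tetracycline, and 12.15, 12.41 and 12.34 and then 12.14, 12.38 and 12.24 in the mutant line. Its WT change was 0.27 (SE 0.14, adjusted p = 0.194) and its groups overlapped. The WT changes of the other 4 lay between -0.15 and 0.20, and the 5 mutant changes between -0.37 and -0.03. The dim 227175_at lay between 2.35 and 7.36.

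Of the effectors, neither BAX nor BAK1 passed with tetracycline in either line. BAX, which moves from the cytosol to mitochondria when activated, read 9.51, 8.76 and 10.01 on 208478_s_at in the untreated WT arrays and 9.65, 9.34 and 9.14 with tetracycline (change -0.05, SE 0.26, adjusted p = 0.923). The same probe set read 9.78, 10.06 and 10.11 and then 9.66, 9.70 and 10.09 in the mutant line. On 211833_s_at the WT arrays read 9.50, 9.26 and 9.68 and then 9.54, 8.94 and 8.92, and the mutant arrays 9.84, 9.88 and 10.02 and then 9.58, 9.88 and 9.79. Treated and untreated arrays overlapped on both, and the WT change on 211833_s_at was -0.35 (SE 0.19, adjusted p = 0.228). BAK1, which resides in the mitochondrial membrane, read 8.50, 8.45 and 9.11 on the untreated WT arrays and 8.78, 9.17 and 8.99 with tetracycline, a change of 0.29 (SE 0.19, adjusted p = 0.326).

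PMAIP1, which encodes the BH3-only protein NOXA, separated the WT tetracycline arrays from each other. On 204285_s_at the untreated WT arrays read 13.72, 14.44 and 13.81 and the tetracycline arrays 13.80, 14.98 and 15.01. On 204286_s_at they read 14.37, 14.63 and 14.04 and then 14.10, 15.01 and 15.24. On both probe sets tetracycline replicates 2 and 3 were above every untreated array and replicate 1 was not. The changes were 0.61 (SE 0.25, adjusted p = 0.115) and 0.44 (SE 0.24, adjusted p = 0.221), and neither passed. Without WT tetracycline replicate 1 they were 1.01 (adjusted p = 0.000394) and 0.78 (adjusted p = 0.00393). The mutant arrays read 13.94, 14.19 and 14.29 untreated and 13.84, 13.95 and 14.34 with tetracycline on 204286_s_at and stayed between 14.06 and 14.23 on 204285_s_at. Their groups overlapped, with changes of -0.10 (SE 0.24) and 0.00 (SE 0.25).

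BCL2L11, which encodes BIM, had 7 tested probe sets, and none passed in either line. The brightest, 225606_at, read 10.49, 10.66 and 10.38 on the untreated WT arrays and 10.21, 10.35 and 10.19 with tetracycline, and 10.54, 10.21 and 10.22 and then 10.14, 10.02 and 10.09 in the mutant line. Its groups were apart in both lines, and its changes were -0.26 (SE 0.14, adjusted p = 0.229) and -0.24 (SE 0.14, adjusted p = 1). The probe sets of this gene did not share a sign in the WT line: 1553096_s_at changed by 0.56 (SE 0.20, adjusted p = 0.0665), 1558143_a_at by 0.51 (SE 0.19, adjusted p = 0.0791) and 222343_at by 0.62 (SE 0.29, adjusted p = 0.157). Without WT tetracycline replicate 1 these had changes of 0.77, 0.63 and 0.88 and adjusted p of 0.00473, 0.0257 and 0.036. The other 3 had changes of -0.05, 0.38 and 0.85 with adjusted p from 0.347 to 0.933.

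BIK, a BH3-only protein of the endoplasmic reticulum, read 8.35, 8.76 and 9.03 on the untreated WT arrays and 9.38, 8.81 and 9.01 with tetracycline, and 9.35, 9.13 and 9.27 and then 8.87, 9.30 and 8.98 in the mutant line. The groups overlapped in both lines. Its changes were 0.35 (SE 0.21, adjusted p = 0.273) and -0.20 (SE 0.21, adjusted p = 1). Leaving out WT tetracycline replicate 1 raised the member calls of the WT induction from 3 to 9 (6 rises and 3 falls), and leaving out replicate 2 lowered them to 2. The whole table moved likewise, from 5005 calls to 8096 without replicate 1 and to 2745 without replicate 2.

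The second comparison asked how the family's RNA differed with tetracycline in the mutant line. Tetracycline and the kinase-deleted channel that it is meant to induce cannot be told apart there. No member probe set passed, against 0% of all tested probe sets by limma. At an unadjusted p under 0.05 there were 1 of 25 members and 620 of 29553 in all, and with limma array weights 0 members and 4 probe sets in all passed. Of the 25 member probe sets 6 had a higher and 19 a lower mean with tetracycline, and the median change was -0.16 against 0.00 over all tested. The 19 included all 7 probe sets of BCL2L11 and all 5 tested ones of MCL1, which are not independent. The share of lower means over all tested probe sets was not counted, so these counts are a description. Treated and untreated arrays did not overlap for 5 member probe sets, against 13.2% of all tested, and for 6 in the WT line, against 26.7%. Both counts include BCL2L1 206665_s_at, which passed the filter only through the mutant line, so they are a description.

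**Figure D2:**
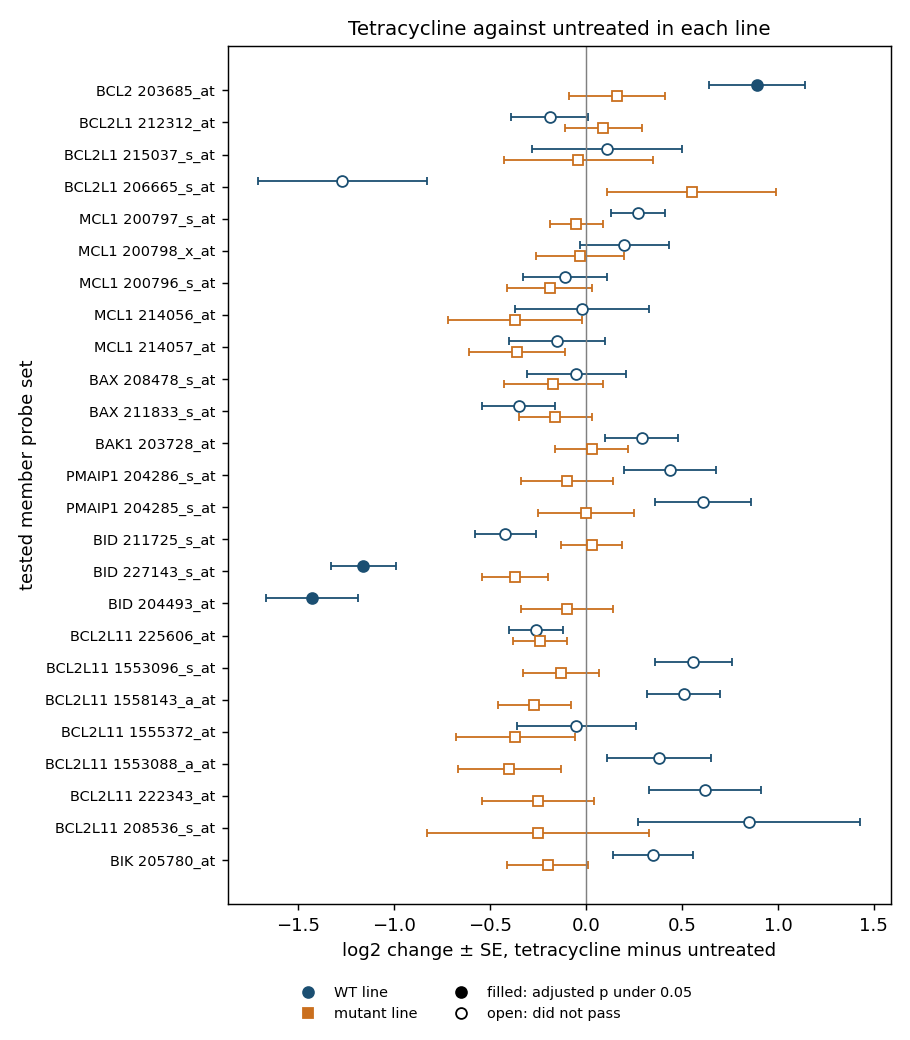
Log2 change with tetracycline (tetracycline minus untreated) with its SE from the limma fit, for the 25 tested member probe sets, in the WT line (circles) and the mutant line (squares), n = 3 arrays per group; filled symbols passed an adjusted p under 0.05. The filled points are BCL2 at 0.89 and BID at -1.16 and -1.43, all in the WT line.

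The third comparison, the WT change minus the mutant change, asked whether the family responded differently in the lines. None of the 25 members passed, against 0.139% of all tested probe sets. By limma 5 members and 4271 probe sets in all had an unadjusted p under 0.05. With array weights 6 members passed, 3 in each direction, and 2493 probe sets in all, against 41 in the main fit. The downward ones included BCL2L1 206665_s_at, which entered the test only through the mutant line, so this count is a description. The 2 BID probe sets that fell had the smallest p among the members: the difference was -1.33 (SE 0.35, adjusted p = 0.115) for 204493_at and -0.79 (SE 0.23, adjusted p = 0.152) for 227143_s_at. BCL2L1 206665_s_at followed at -1.82 (SE 0.63, adjusted p = 0.21), then BCL2L11 1558143_a_at at 0.77 (SE 0.27, adjusted p = 0.212) and 1553096_s_at at 0.69 (SE 0.28, adjusted p = 0.277). The BCL2 difference was 0.72 (SE 0.36, adjusted p = 0.377). Without WT tetracycline replicate 1 the calls over all probe sets rose to 2686. There were then 6 member calls: both PMAIP1 probe sets and both of these BCL2L11 probe sets upward, and the same BID pair downward. Of that pair, 204493_at had a difference of -1.63 (adjusted p = 0.00228).

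The last comparisons set the lines against each other, first untreated and then with tetracycline. BAK1 signal was below the mutant level in WT cells under both conditions, and so was the MCL1 probe set 200796_s_at. The MCL1 probe sets 214056_at and 214057_at were higher in the WT line under both. With tetracycline, 2 of 3 BID and 1 of 2 BAX probe sets were also lower, and the tested BCL2 probe set and 1 of 2 PMAIP1 probe sets higher. BCL2L1 passed only on probe sets whose WT group means lay under the filter. Untreated, 5 of 25 member probe sets passed (2 higher and 3 lower), 20% against 12.9% of all tested (4.19% higher and 8.70% lower). With tetracycline 11 passed (4 higher and 7 lower), 44% against 27.6% of all tested (10.2% higher and 17.3% lower). They came from 7 of the 9 genes, BCL2L1 included. Of these calls 1 untreated and 2 with tetracycline were the BCL2L1 probe sets that passed the filter only through the mutant line, so the counts are a description. The median differences were -0.35 and 0.01 over the members and -0.09 and -0.10 over all tested. The arrays of the lines did not overlap for 11 of 25 member probe sets untreated, against 35.5% of all tested, and for 14 with tetracycline, against 41.5%. Both counts include BCL2L1 215037_s_at and 206665_s_at, which passed the filter only through the mutant line, so they too are a description.

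The lines also differed in signs of RNA quality, whose part in these differences was not tested. The log2 ratio of 3′ to 5′ beta-actin signal averaged 1.05 ± 0.265 (SD, n = 6) over the WT arrays and 0.259 ± 0.0262 (SD, n = 6) over the mutant arrays. A 2-sided exact permutation test of the 2 lines gave p = 0.00216, the lowest value 6 against 6 arrays can reach. The 18S control signal averaged 8.73 ± 0.715 (SD, n = 6) over the WT arrays and 6.95 ± 0.549 (SD, n = 6) over the mutant arrays, with the same exact permutation p of 0.00216. The GAPDH ratio gave an exact permutation p of 0.779. Treated and untreated arrays of a line did not pass on the actin ratio, with exact permutation p = 0.6 for WT and p = 0.5 for mutant arrays, where 3 against 3 can reach 0.1 at the lowest.

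BAK1 203728_at, the 1 probe set of this effector, read 9.93, 9.69 and 9.77 on the untreated mutant arrays and 9.73, 9.83 and 9.91 with tetracycline, against no more than 9.17 on any WT array. The 2 lines did not overlap. The difference, WT minus mutant, was -1.11 (SE 0.19, adjusted p = 0.00268) untreated and -0.85 (SE 0.19, adjusted p = 0.00536) with tetracycline. BAX 211833_s_at had the same sign, with -0.43 (SE 0.19, adjusted p = 0.151) and -0.62 (SE 0.19, adjusted p = 0.0266), and 208478_s_at had -0.56 (SE 0.26, adjusted p = 0.17) and -0.44 (SE 0.26, adjusted p = 0.223). The call on 211833_s_at was lost with quantile normalization, in the fit of the treated arrays alone, without the third arrays and without the WT or mutant tetracycline replicates 2 or 3, with adjusted p up to 0.229 over all alternatives.

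MCL1 showed opposite differences on different probe sets. On 200796_s_at the untreated WT arrays read 8.72, 8.23 and 9.26 and the mutant arrays 9.76, 9.80 and 9.76. With tetracycline the same probe set read 8.56, 8.56 and 8.76 in the WT line and 9.64, 9.40 and 9.69 in the mutant line. The WT line was lower by 1.04 untreated (log2 difference -1.04, SE 0.22, adjusted p = 0.00754) and by 0.95 with tetracycline (-0.95, SE 0.22, adjusted p = 0.00566), with no overlap.

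On 214057_at the order turned: the WT arrays read 8.68, 7.85 and 8.11 untreated and 8.27, 7.77 and 8.15 with tetracycline, and the mutant arrays 7.34, 7.39 and 7.30 and then 7.01, 7.04 and 6.88. On 214056_at the WT arrays read 9.32, 7.55 and 8.53 and then 8.74, 8.45 and 8.14, and the mutant arrays 7.44, 7.20 and 7.41 and then 6.86, 7.27 and 6.81. Every WT array was above every mutant array on both. The differences were 0.87 (SE 0.25, adjusted p = 0.0347) and 1.08 (SE 0.25, adjusted p = 0.00616) on 214057_at, and 1.11 (SE 0.35, adjusted p = 0.0495) and 1.46 (SE 0.35, adjusted p = 0.00744) on 214056_at. The untreated calls on both were lost in the fit of the untreated arrays alone and without any 1 of the untreated mutant arrays, among others, with adjusted p up to 0.165 on 214057_at and 0.222 on 214056_at. The 2 brightest MCL1 probe sets did not pass: 200797_s_at differed by 0.06 (SE 0.14) untreated and 0.37 (SE 0.14, adjusted p = 0.0552) with tetracycline, and 200798_x_at by -0.35 (SE 0.23) and -0.12 (SE 0.23). MCL1 therefore had no single direction between the lines.

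**Figure D3:**
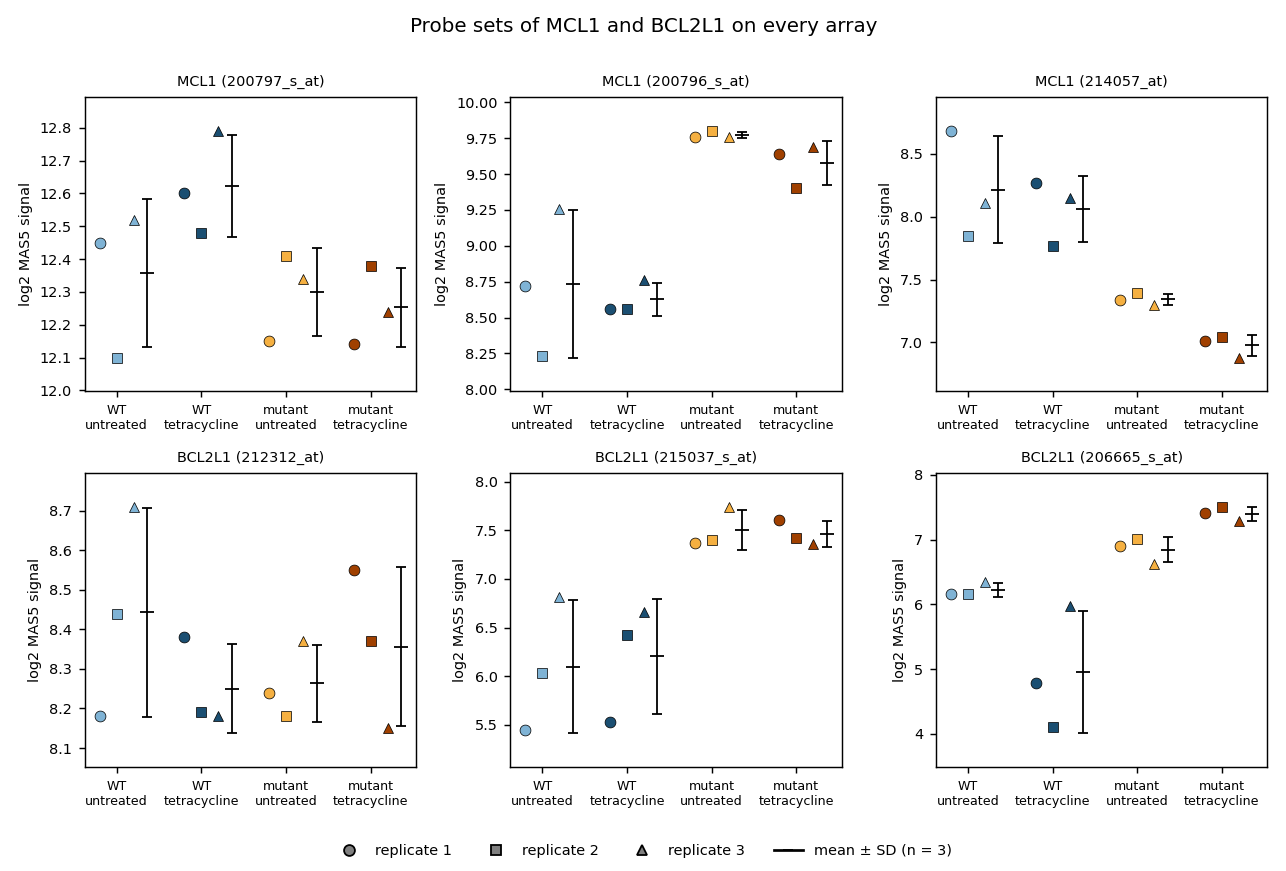
Log2 MAS5 signal on each of the 12 arrays for 3 probe sets each of MCL1 and BCL2L1, by group, with the mean and SD (n = 3); each panel has its own axis, which does not start at 0. MCL1 200796_s_at is lower in the WT line and 214057_at higher, while BCL2L1 212312_at overlaps between the lines and the other 2 BCL2L1 probe sets have WT means under the filter of 6.39.

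BCL2L1 did not differ past the threshold on its brightest probe set, 212312_at, the 1 above the filter in both lines: the differences were 0.18 (SE 0.20) untreated and -0.10 (SE 0.20) with tetracycline. The other 2 tested probe sets had WT group means under the filter of 6.39 and entered the test only through the mutant line, where they are high, so their differences are given as a description. On 215037_s_at the WT arrays read 5.45, 6.03 and 6.81 untreated and 5.53, 6.42 and 6.66 with tetracycline, and the mutant arrays 7.37, 7.40 and 7.74 and then 7.61, 7.42 and 7.36. The lines did not overlap, and the differences were -1.40 (SE 0.39, adjusted p = 0.0291) and -1.26 (SE 0.39, adjusted p = 0.027). Those calls were lost with quantile normalization, without filter and in fits that left out an array (each of the untreated mutant arrays or untreated WT replicates 1 or 2 for the first, each treated mutant array or WT tetracycline replicate 1 for the second), with adjusted p up to 0.106 and 0.085. On 206665_s_at, whose arrays are given above, the difference was -0.63 (SE 0.44, adjusted p = 0.39) untreated and -2.45 (SE 0.44, adjusted p = 0.00146) with tetracycline.

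With tetracycline, 2 of 3 BID probe sets stood below the mutant level, with log2 differences of -0.74 (SE 0.17, adjusted p = 0.00521) on 227143_s_at and -1.13 (SE 0.24, adjusted p = 0.00409) on 204493_at, while untreated these differed by 0.05 (SE 0.17) and 0.19 (SE 0.24) and did not pass. The brightest BID probe set, 211725_s_at, differed by -0.19 (SE 0.16, adjusted p = 0.385) with tetracycline and by 0.25 (SE 0.16, adjusted p = 0.315) untreated. BCL2 stood above the mutant level by 1.02 (SE 0.25, adjusted p = 0.00941) with tetracycline and by 0.30 (SE 0.25, adjusted p = 0.49) untreated. PMAIP1 204286_s_at was higher by 0.74 (SE 0.24, adjusted p = 0.0311) with tetracycline although its groups overlapped, with WT tetracycline replicate 1 at 14.10 below the highest mutant array at 14.34. The other PMAIP1 probe set, 204285_s_at, did not pass, at 0.44 (SE 0.25, adjusted p = 0.208) with tetracycline and -0.16 (SE 0.25, adjusted p = 0.727) untreated. The call on 204286_s_at was lost in 9 of 21 alternatives, among them without WT tetracycline replicates 2 or 3 or mutant tetracycline replicates 1 or 2 (adjusted p up to 0.142), and the BCL2 call was lost without mutant tetracycline replicate 2 or the third arrays (up to 0.107). No probe set of BCL2L11 or BIK passed between the lines. The 7 BCL2L11 differences lay between -1.24 and 0.19 untreated and between -0.14 and 0.47 with tetracycline, the smallest adjusted p being 0.0512 for 1558143_a_at untreated (-0.60, SE 0.19). BIK differed by -0.53 (SE 0.21, adjusted p = 0.112) and 0.01 (SE 0.21, adjusted p = 0.969). Whether the line difference itself changed with tetracycline is the third comparison, which no member passed.

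**Figure D4:**
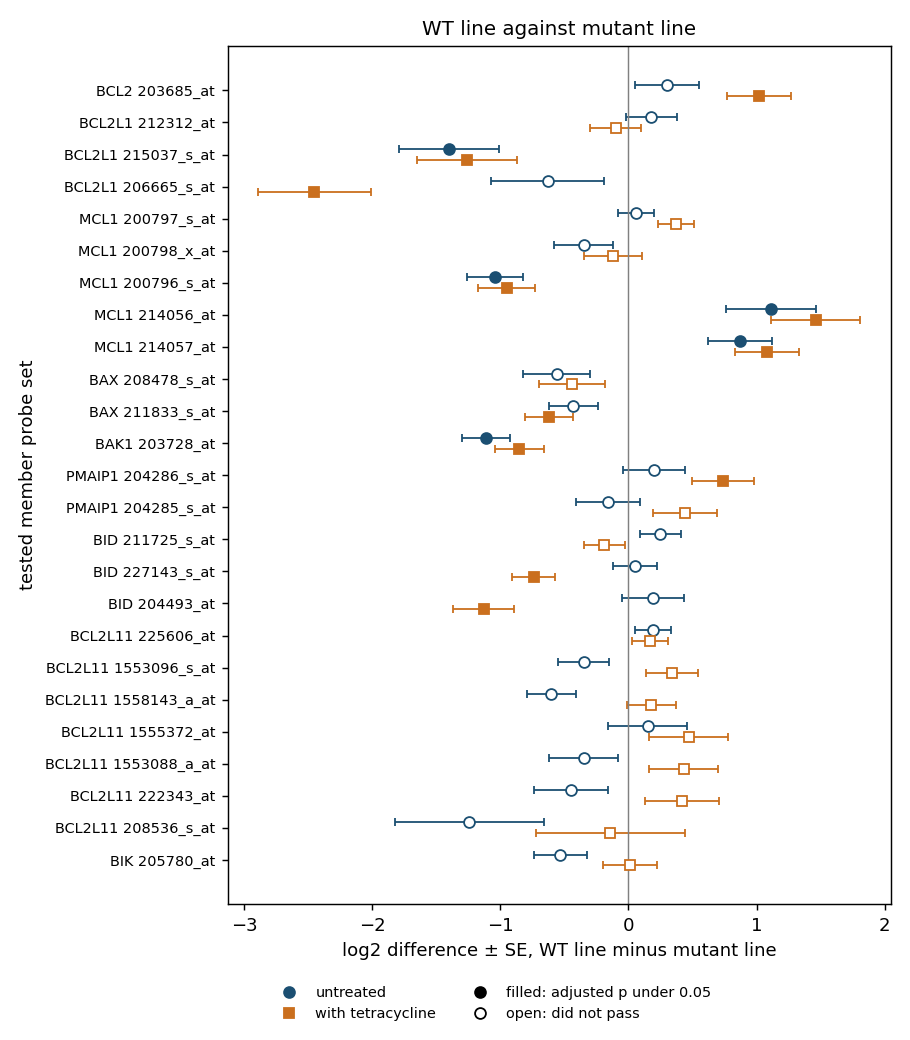
Log2 difference between the lines (WT minus mutant) with its SE from the limma fit, for the 25 tested member probe sets, untreated (circles) and with tetracycline (squares), n = 3 arrays per group; filled symbols passed an adjusted p under 0.05. BAK1 and MCL1 200796_s_at are filled below 0 under both conditions, as is BCL2L1 215037_s_at, whose WT means are under the filter, and MCL1 214056_at and 214057_at above 0. The tested BCL2 probe set and 2 of 3 BID probe sets are filled only with tetracycline.

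Genes that act with the family were read from 6 lists with 1 probe set per gene, against 9.41% of 13067 genes up and 8.57% down in the WT induction. The lists were chosen with earlier results of these data known, so their counts are a description. Of 11 tested among 14 other family genes, 2 rose and 1 fell. HRK, a BH3-only gene, rose by 1.22 (SE 0.28, adjusted p = 0.00898), and BECN1, a BCL2 binding protein of autophagy, by 0.52 (SE 0.13, adjusted p = 0.0137). BOK, a BAX-like protein, fell by 1.05 on the log2 scale (SE 0.21, adjusted p = 0.00474). BNIP1, at 0.67 (adjusted p = 0.0595), did not pass. The list's median change was 0.11 against 0.03 over all genes.

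Downstream of the pore, 0 of 14 tested genes of the apoptosome, caspases and mitochondrial release rose and 3 fell, with a median of -0.18. DFFB, the nuclease that cuts DNA into ladders, fell by 1.06 (SE 0.20, adjusted p = 0.00305), CASP2 by 0.48 (SE 0.14, adjusted p = 0.03) and AIFM1, a flavoprotein released from mitochondria, by 0.43 (SE 0.14, adjusted p = 0.0487). ENDOG had a change of -0.61 (adjusted p = 0.0501). Of 6 inhibitors of apoptosis 1 rose, with a median of 0.20: BIRC2, a ubiquitin ligase of TNF receptor signalling, by 0.61 (SE 0.14, adjusted p = 0.00968). CFLAR at 0.44 (adjusted p = 0.0651), XIAP at 0.34 (adjusted p = 0.197) and NAIP at -0.22 (adjusted p = 0.76) did not pass.

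Of 12 mitochondrial partners of BAX and BAK1 none rose and 4 fell, with a median of -0.11. DNM1L, the fission GTPase, fell by 0.65 (SE 0.13, adjusted p = 0.00526), MTCH2, an outer membrane protein that binds the cut form of BID, by 0.77 (SE 0.19, adjusted p = 0.0148), PPIF by 0.61 (SE 0.16, adjusted p = 0.0165) and VDAC3, an outer membrane channel, by 0.47 (SE 0.15, adjusted p = 0.0481). Among 14 turnover and binding partners 2 rose and 2 fell, with a median of 0.22. MARCHF5, a mitochondrial ubiquitin ligase, rose by 0.80 (SE 0.12, adjusted p = 0.000975) and BAG1, a BCL2 binding co-chaperone, by 1.00 (SE 0.22, adjusted p = 0.00692). YWHAB, a 14-3-3 protein, fell by 1.04 (SE 0.18, adjusted p = 0.00212) and DYNLL1, a dynein light chain that binds BIM, by 0.40 (SE 0.12, adjusted p = 0.0308).

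Of 14 tested transcription factors that act on family genes 5 rose and 1 fell, with a median of 0.35. This list too was chosen with earlier results known, and its counts are not a test. DDIT3 rose by 2.06 (SE 0.19, adjusted p = 6.34e-05), ATF3 by 2.03 (SE 0.18, adjusted p = 6.34e-05), CEBPB by 1.16 (SE 0.15, adjusted p = 0.000367) and ATF4 by 0.82 (SE 0.12, adjusted p = 0.000657). The first 3 and ATF4 are leucine zipper factors of the stress response. The other 2 that passed, TP73, which rose by 1.09 (adjusted p = 0.00475), and MYC, which fell by 1.41 (adjusted p = 0.00112), were named after their values were seen. In the fit of the WT arrays alone 1223 of 29553 tested probe sets passed, fewer than the 5005 of the main fit. In that fit 5 of these factors passed, with 0 of the other family genes and 1 of the caspase list (DFFB). The inhibitors had 0, the mitochondrial partners 0 and the turnover partners 2. Among the named genes that passed, leaving out WT tetracycline replicate 2 ended the calls on BECN1, CASP2, AIFM1, VDAC3, PPIF, MTCH2 and DYNLL1. All of these but BECN1 were also lost without WT tetracycline replicate 3 or untreated replicate 3. Their highest adjusted p over all alternatives lay between 0.108 (PPIF) and 0.361 (AIFM1).

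**Figure D5:**
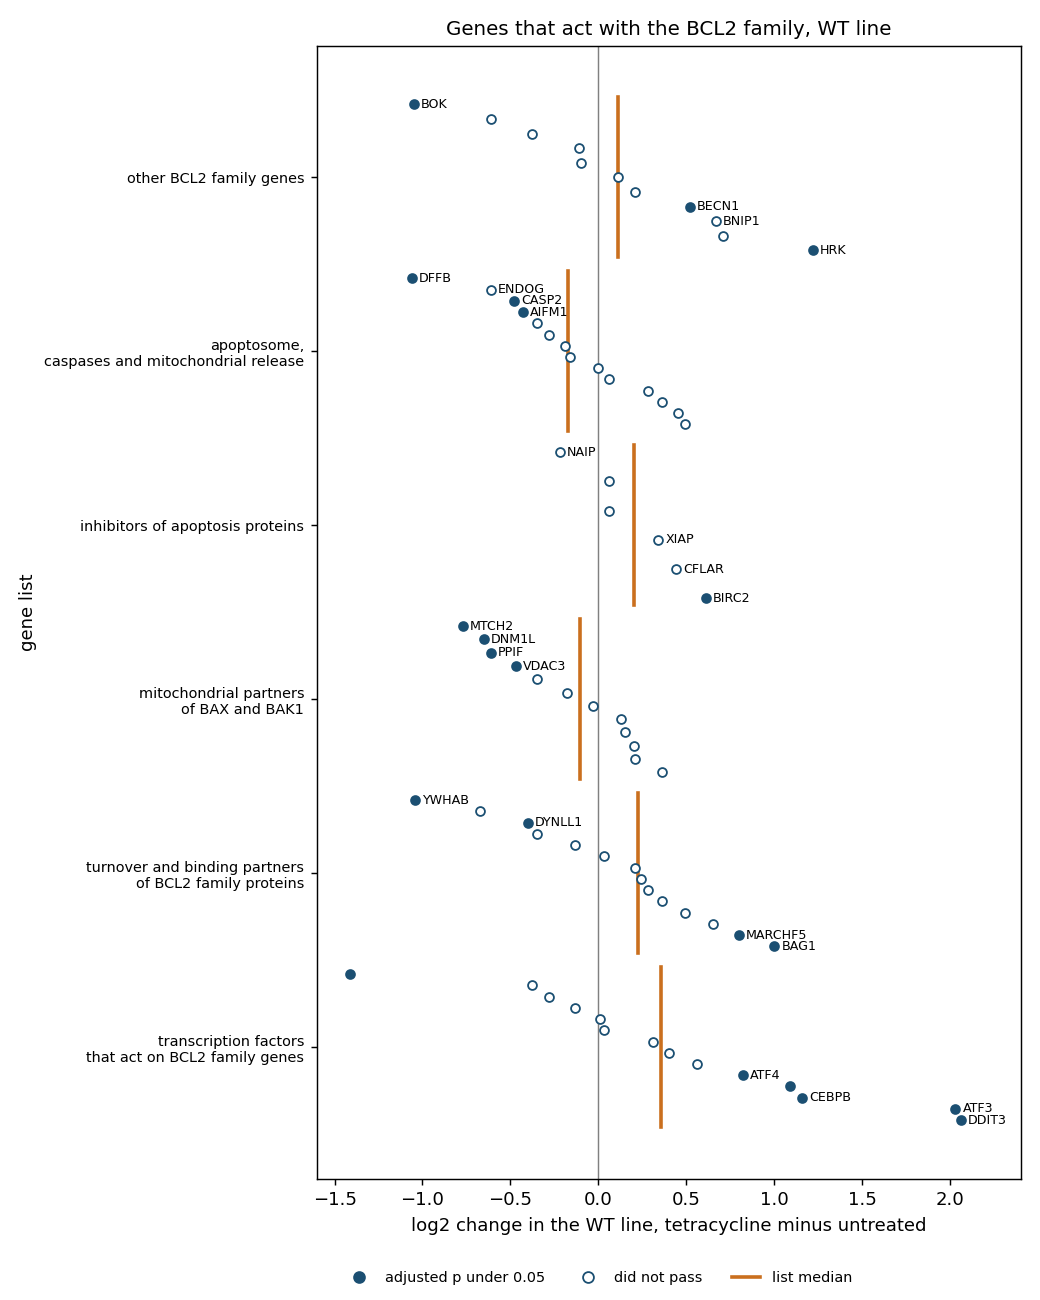
Log2 change in the WT line (tetracycline minus untreated) of each tested gene of the 6 lists, 1 probe set per gene, with the list median as a bar; filled symbols passed an adjusted p under 0.05 and up to 4 genes of each list with the smallest p are named. DDIT3 and ATF3 lie near 2 on the right, and the caspase and mitochondrial lists have filled points only on the left.

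In the mutant line no gene of the 6 lists passed, against 0% of all genes. For the difference of the inductions, where 0.145% of genes passed and 0.0765% passed upward, 2 of the transcription factors did: DDIT3 at 1.81 (SE 0.27, adjusted p = 0.0329) and ATF3 at 1.42 (SE 0.25, adjusted p = 0.0485). Leaving out a single array ended the DDIT3 call in 9 of 12 cases and the ATF3 call in 9 of 12 (adjusted p up to 0.819 over all alternatives). Between the untreated lines 12.7% of genes passed (5.84% higher and 6.82% lower in the WT line), and the lists held 1 higher and 2 lower other family genes, 2 and 0 of the caspase list, 1 and 0 inhibitors, 2 and 1 mitochondrial partners, 1 and 1 turnover partners and 0 and 0 transcription factors. With tetracycline 28.2% passed (13.3% higher and 14.9% lower), and the counts were 2 and 1, 0 and 2, 4 and 0, 3 and 3, 4 and 3, and 6 and 3 in the same order.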

How the data were processed

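Total RNA from 12 samples was labelled with biotin and measured on 1 array each, per the labels' protocols. The deposited values are MAS5 signals, a linear intensity; the submitters' processing notes name the method, and its version is not given in the sources used here. Signals under 1 (0.337% of values) were set to 1 and log2 was taken. After 62 control probe sets were removed, those with a highest group mean above the median of all values, 6.39, were tested. Symbols came from the platform annotation, where 41091 probe sets carried 1 symbol, 1801 several and 11721 none.

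All 12 arrays entered 1 limma model (version 3.58.1, R 4.3.3) with a mean per group and eBayes with a variance trend, and 5 contrasts were taken. A call is a Benjamini-Hochberg adjusted p under 0.05 over all tested probe sets, 2-sided. Every array is given for called member probe sets and each member's brightest, and the others by values, ranges or counts. From each other list up to 4 genes with the smallest p in the WT induction are named. The members and lists were chosen with earlier results of these data known. The fit was tested on simulated data with independent noise and 1 spread per probe set for all groups. It was not tested with unequal spreads such as those of the WT and mutant groups. Figures used matplotlib 3.10.9 in Python 3.11.15, and 0 columns were left out.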

Additional observations from a re-analysis of the deposited data

Results flagged for a closer look

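The BCL2L1 probe set 206665_s_at moved in opposite directions in the 2 lines: all 3 tetracycline arrays were below all 3 untreated arrays in the WT line and above them in the mutant line. The difference of the inductions was -1.82 (limma adjusted p = 0.21) and did not pass. All 6 WT arrays of this probe set read below 6.39, the filter on dim signals, which it passed only through the mutant line, so its WT change is a difference among dim signals.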

How the results depend on the processing

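Of 19 member calls 8 were lost when some single array was left out, none of them on BID, BAK1 or MCL1 200796_s_at, and 5 dim member probe sets were not tested. BID 227143_s_at fell in the WT line under 21 of 21 alternatives and 204493_at under 20 of 21. BAK1 and MCL1 200796_s_at passed between untreated lines in 21 of 21. Of the member values called in the main setting or an alternative (19 and 20), none reversed, and 86 were never called, of which 28 changed sign in some alternative.

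Leaving out 1 array at a time gave 2 to 9 member calls for the WT induction, 0 to 0 for the mutant induction, 0 to 6 for the difference, 2 to 6 untreated and 7 to 13 with tetracycline. Over all probe sets the ranges were 2745 to 8096, 0 to 0, 0 to 2686, 1611 to 5357 and 5206 to 10243. Omitting the third array of every group left 1 member and 535 probe sets in all for the WT induction, 0 for the difference, 2 and 1644 untreated and 2 and 2685 with tetracycline. Array weights gave 7 members and 6312 in all for the WT induction, 6 members and 2493 in all for the difference, and 4 in all for the mutant induction. Both member counts include BCL2L1 206665_s_at, which passed the filter only through the mutant line. Fitting only the groups compared gave 1223 in all for the WT induction and 3 members untreated. The difference, with 41 calls in all, had 8 without filter, 89 with the filter at the 75th percentile, 76 with an offset of 16, 15 with quantile normalization and 6 without the variance trend. Untreated members were 2 of 30 tested without filter and 3 of 15 at the 75th percentile, against 5 of 25 in the main fit. Members with tetracycline were 7 of 15 at the 75th percentile, against 11 of 25. Fewer arrays or probe sets entered the fits that omitted arrays or filtered; otherwise the cause was not tested. The alternatives for the other gene lists were added after seeing the data.

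Within each line, deviations of arrays with the same replicate number were weakly and positively correlated in every pair (from 0.0258 to 0.253). In each group the count of values under the floor rose with replicate number, for example from 103 to 318 in the untreated WT arrays. Whether the numbers mark a batch was not tested, and the main fit does not use them. With the replicate number as a block, the WT induction had 4 member calls and 5725 in all, against 3 and 5005 in the main fit. The difference had 0 member calls and 76 in all, against 0 and 41.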
